A study of Homo sapiens with 5 samples.

Results

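CACUL1, MNAT1, TPD52L2, HIPK1, POP5, ABHD14B, YWHAB and HMGN1 are 8 protein-coding genes whose transcripts were lower in the negative-control library than in each of 4 microRNA libraries of HCT116 cells. The group was picked from the deposited expression table for exactly that pattern, so the distance from the control is what chose the genes and is given here as a description, with no test. The 8 genes are 8 of the 57773 gene rows in the table, and all 8 passed the filter, a mean over the 5 libraries of no less than 1 TPM, among 14180 rows in all. Their Ensembl identifiers in the table are ENSG00000151893 (CACUL1), ENSG00000020426 (MNAT1), ENSG00000101150 (TPD52L2), ENSG00000163349 (HIPK1), ENSG00000167272 (POP5), ENSG00000114779 (ABHD14B), ENSG00000166913 (YWHAB) and ENSG00000205581 (HMGN1). A TPM value is a gene's share of all transcripts in a library, corrected for transcript length.

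HCT116 is a human colorectal carcinoma line, and the series text gives the cells as Dicer KO. The enzyme Dicer cuts microRNA precursors into mature microRNAs. Every library, the control included, therefore comes from cells described as lacking it, into which a ready-made RNA was introduced by transfection. There was 1 library each for let-7a 19A, native let-7a, miR-17 13A, native miR-17 and the negative control. The labels do not call 19A and 13A methylated; they are taken here as the methylated forms because the series text names methylated and unmethylated microRNAs. The labels give neither the sequence of the control RNA nor the kind of methyl group, and they do not say whether the knockout line is a single clone. By its title, the study concerns the effect of microRNA methylation on decay of target mRNAs.

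With 1 library per condition, none of the differences below can be set against replicates, so they carry neither a test nor an error. All comparisons with the control rest on the same single control library. Sequencing depth cannot be read from TPM values, and in bulk RNA fewer cells with a transcript and less transcript per cell cannot be told apart. Of the marker genes looked up, the epithelial EPCAM, CDH1, KRT8, KRT18 and KRT19 ranged from 60.5 to 3109.4 TPM over the 5 libraries, whereas the intestinal genes VIL1 and CDX1 and the leukocyte gene PTPRC were listed at 0 in all 5. CD3E, CDH5 and ALB did not pass 0.1 TPM in any library, COL1A1 lay between 10.8 and 16.3 TPM, and PECAM1 was not analysed here. DICER1 mRNA lay between 11.2 and 15.9 TPM with the microRNAs and at 15.4 TPM in the control. Cells with intact Dicer were not analysed here, so these values do not check the knockout. The share of mitochondrial transcripts was 9.36% to 11.7% in the microRNA libraries and 12.6% in the control, and that of ribosomal protein genes 15.7% to 17.6% against 14.2%. The part of these shares in the results below was not tested, beyond the rescaling without both gene classes given at the end.

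A mature microRNA guides an Argonaute protein to mRNAs, mostly through pairing of its seed, bases 2 to 8 counted from the 5′ end, with a matching stretch in the 3′ untranslated region (3′ UTR). The paired mRNA is then repressed and often degraded. Negative-control RNAs used in transfections are commonly short RNAs chosen to have no intended target. The mature sequences of the 2 microRNAs, from RefSeq (GRCh38.p14), are shown so that their seeds, in capitals, can be set against the sites in the 8 genes. Position 19 of let-7a-5p and position 13 of miR-17-5p, the numbers in the labels, are both A.
hsa-let-7a-5p: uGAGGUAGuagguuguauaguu
hsa-miR-17-5p: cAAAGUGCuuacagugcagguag

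The 8 genes were searched for 5 heptamers in the longest annotated 3′ UTR of each (GENCODE 29), on the transcript strand. These were the 2 let-7a seed matches CTACCTC and TACCTCA, the 2 miR-17 seed matches GCACTTT and CACTTTA, which share 6 bases, and GGTTGTG. This last heptamer matches neither seed. It was taken from an earlier look at the same data, where genes that carry it were relatively low in the control, so its presence in genes chosen for low control values is not independent of that choice. It lay in the 3′ UTR of 6 of the 8 genes, against 10.5% of the 12023 genes searched. The matches are shown with 10 bases on either side and the heptamer in capitals, and positions count from the first base after the stop codon.
CACUL1, chromosome 10, from base 4076: ggacctttttGGTTGTGattactgttt
MNAT1, chromosome 14, from base 277: atgtgtttgaGGTTGTGacagacttat
TPD52L2, chromosome 20, from base 742: gttccttaatGGTTGTGagcattgtgt
TPD52L2, chromosome 20, from base 1506: tgagaaggcaGGTTGTGcgggtgttga
HIPK1, chromosome 1, from base 3985: ccctttttttGGTTGTGcgctttcttt
POP5, chromosome 12, from base 200: aagtgttgcaGGTTGTGaactctgtag
YWHAB, chromosome 20, from base 1931: gcacacccgtGGTTGTGaaaatagtat

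Of these 7 matches, 5 were followed by A, and the other 2, the second of TPD52L2 and that of HIPK1, by C. The share followed by A over all searched genes with the heptamer is not given here, so nothing is read from this count. TPD52L2 was the only one of the 8 genes with 2 matches in the 3′ UTR, and also held the heptamer in its coding sequence. ABHD14B, on chromosome 3, had no match in any annotated 3′ UTR but had 1 in the coding sequence of all 6 of its coding transcripts; 7.78% of searched genes hold the heptamer in a coding sequence. HMGN1, on chromosome 21, had none in any of its 20 annotated transcripts. The ABHD14B match is shown because it places the heptamer outside the 3′ UTR.
ABHD14B, coding sequence: tgggccccccGGTTGTGatcagtccat

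Each of the 4 let-7a and miR-17 seed matches lay in the 3′ UTR of 1 of the 8 genes. With 8 genes, such counts cannot be told apart from the shares of all searched genes given below. ABHD14B and CACUL1 carried these matches, and MNAT1, TPD52L2, HIPK1, POP5, YWHAB and HMGN1 had none of the 4. The share of searched genes with any of the 4 is not given here. ABHD14B had 1 CTACCTC, a match to let-7a bases 2 to 8 that 11.2% of searched genes carry. CACUL1, whose 3′ UTR of 9717 bases is longer than that of 98.8% of searched genes, had 1 TACCTCA, 1 GCACTTT and 1 CACTTTA, which 12.1%, 25.3% and 15.7% of searched genes carry. A match describes the letters only and shows neither binding nor its absence. The sequences are shown because these are the transfected microRNAs' own matches in the group.
ABHD14B, let-7a match from base 155: tttgtcttttCTACCTCtttctcttgc
CACUL1, let-7a match from base 6164: tctaatagtaTACCTCAaaatatgtaa
CACUL1, miR-17 match from base 612: tgagctttgtGCACTTTgcaactgtgt
CACUL1, miR-17 match from base 9504: ctagttttaaCACTTTAtaaaaacaac

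The other 3′ UTRs ran from 554 bases in POP5 to 4357 in HIPK1, and the median over the 8 genes was 1602 bases against 1357 over all genes searched. Their median GC content was 38.4%, against 43.3%. In the 11 RefSeq promoters of the 8 genes (GRCh38.p14, the stretch around each start), searched on both strands, the GC box GGGCGG was present in 7, CCAAT in 4, the ETS core CCGGAA in 3 and TATAAA in 1. Of 35116 promoters 45% held GGGCGG, 34.6% CCAAT, 17.2% CCGGAA and 11.5% TATAAA.

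By the smallest of their 4 differences, CACUL1 and MNAT1, with roles around cyclin-dependent kinases, stood furthest from the control among the 8 genes. CACUL1, a cullin-domain protein that associates with the cell-cycle kinase CDK2, had 75.9 TPM with let-7a 19A, 76.0 with native let-7a, 66.0 with miR-17 13A and 76.1 with native miR-17, against 28.7 TPM in the control. Its miR-17 13A library was the lowest of the 4, and the others lay between 75.9 and 76.1 TPM. MNAT1, the assembly factor of the CDK-activating kinase and a part of the general transcription factor TFIIH, had 24.2 TPM with let-7a 19A, 24.8 with native let-7a, 26.2 with miR-17 13A and 28.1 with native miR-17, against 10.4 TPM in the control. On the scale of log2(TPM + 1), on which all differences below are given and which understates those of low genes, the smallest of the 4 differences from the control was 1.17 for CACUL1 and 1.14 for MNAT1. These were the only 2 of the 8 genes at least 2-fold above the control in TPM + 1 in all 4 microRNA libraries, where 0.254% of the 14180 tested genes were.

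TPD52L2 came next by its smallest difference, followed at a distance by the signalling genes YWHAB and HIPK1, which lay close to the genes described after them. TPD52L2, a coiled-coil protein of the tumour protein D52 family found on intracellular vesicles, had 127.4 TPM with let-7a 19A, 126.2 with native let-7a, 122.8 with miR-17 13A and 130.3 with native miR-17, against 65.2 TPM in the control. Its 4 microRNA libraries spanned 0.08 log2 units, the narrowest range of the 8 genes, and its smallest difference from the control was 0.90. YWHAB, the 14-3-3 beta protein that binds phosphoserine motifs on its partners, had 241.1 TPM with let-7a 19A, 263.6 with native let-7a, 266.0 with miR-17 13A and 292.2 with native miR-17, against 147.4 TPM in the control, the highest level of the group in every library. HIPK1, a nuclear serine/threonine kinase named for its binding to homeodomain factors, had 27.4 TPM with let-7a 19A, 26.5 with native let-7a, 22.9 with miR-17 13A and 28.3 with native miR-17, against 13.9 TPM in the control. For both genes the control was the lowest library and native miR-17 the highest, with smallest differences of 0.71 for YWHAB and 0.68 for HIPK1.

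The RNA-processing, hydrolase and chromatin genes varied more among the microRNA libraries. POP5, a protein subunit of RNase P and RNase MRP, which process tRNA and rRNA precursors, had 19.8 TPM with let-7a 19A, 20.3 with native let-7a, 29.1 with miR-17 13A and 23.9 with native miR-17, against 12.2 TPM in the control. ABHD14B, an alpha/beta hydrolase-fold protein, had 54.4 TPM with let-7a 19A, 54.0 with native let-7a, 66.2 with miR-17 13A and 71.0 with native miR-17, against 33.2 TPM in the control. HMGN1, which binds nucleosomes and loosens compact chromatin, had 168.7 TPM with let-7a 19A, 184.4 with native let-7a, 206.5 with miR-17 13A and 208.9 with native miR-17, against 108.2 TPM in the control. In all 3 genes both miR-17 libraries lay above both let-7a libraries, and all 4 lay above the control. The smallest differences from the control were 0.66 for POP5, 0.69 for ABHD14B and 0.64 for HMGN1.

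**Figure D1:**
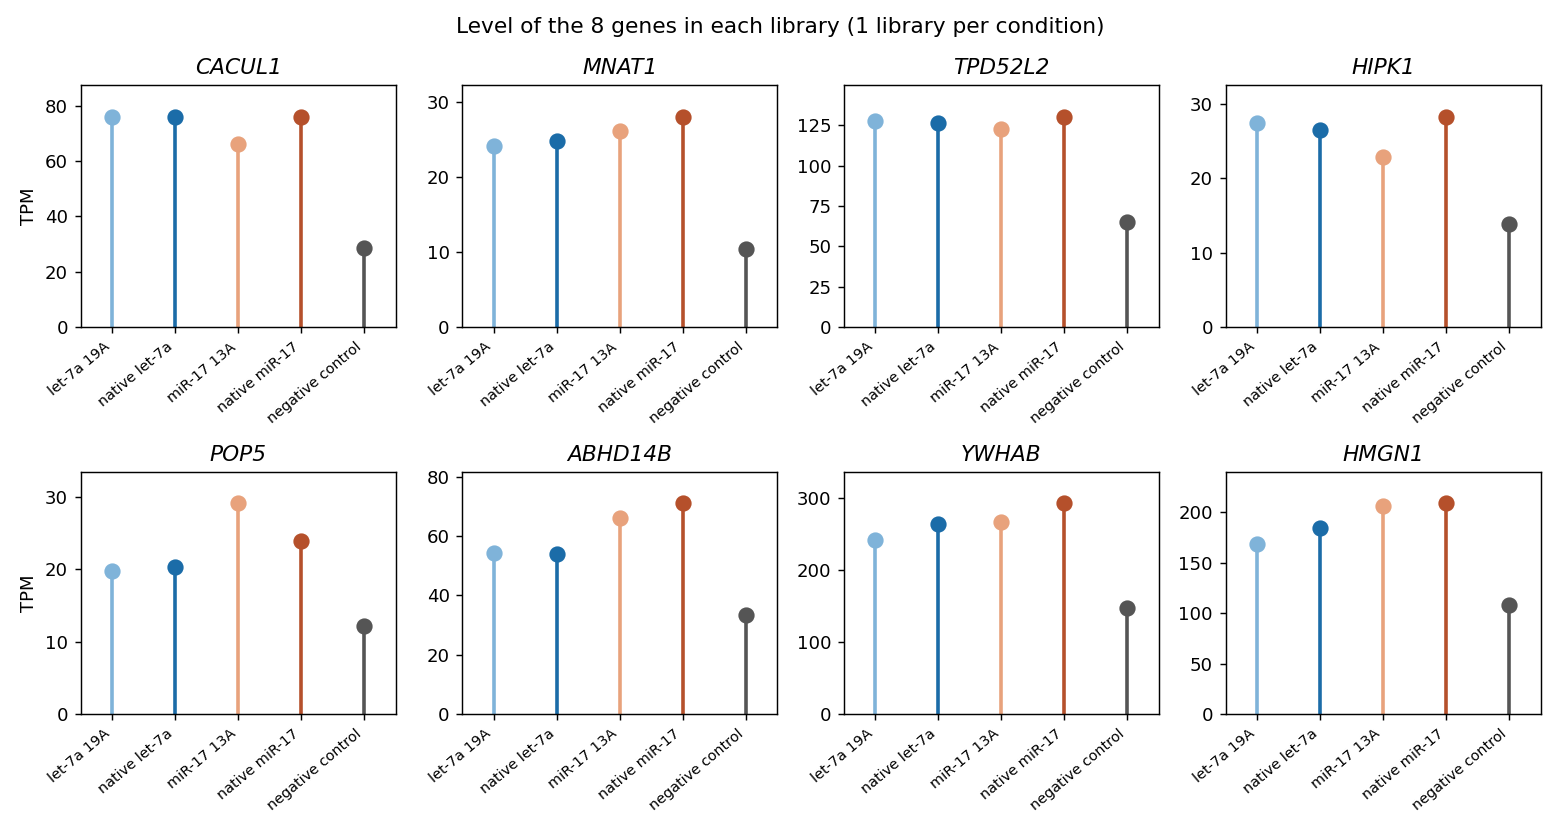
Level in TPM (y axis, from 0, a separate scale per gene) of the 8 genes in the 5 libraries (x axis, 1 library and so 1 point per condition, no error bars). In every panel the negative control on the right is the lowest point, from 10.4 TPM for MNAT1 to 147.4 TPM for YWHAB.

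Against all genes, the 8 lay at the upper end in each comparison, as they were chosen to. All 8 were at least 1.5-fold above the control in TPM + 1 in each comparison, a size that 3.34% of tested genes reached with let-7a 19A, 4.2% with native let-7a, 5.33% with miR-17 13A and 6.5% with native miR-17. In all 4 at once 143 of the 14180 genes reached it, or 1.01%, while 80, or 0.564%, were at least 1.5-fold below the control in all 4, none of them among the 8. Since the choice of genes used this contrast, nothing is read from these counts. At 2-fold the counts were 2 of 8 with let-7a 19A (1.17% of tested genes), 2 with native let-7a (1.21%), 3 with miR-17 13A (1.3%) and 3 with native miR-17 (1.68%), where POP5 was the third in miR-17 13A and ABHD14B in native miR-17. The median difference of the 8 was 0.82 with let-7a 19A, 0.86 with native let-7a, 0.95 with miR-17 13A and 0.99 with native miR-17, beside -0.04, 0.00, -0.06 and 0.02 over all tested genes.

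**Figure D2:**
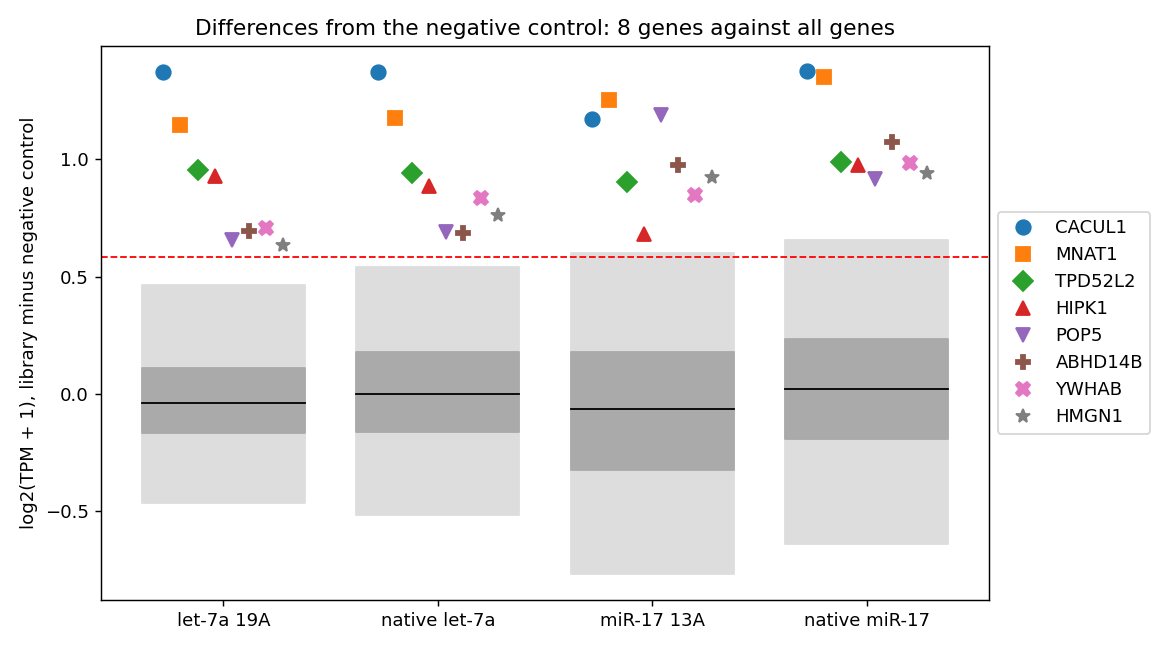
Difference of log2(TPM + 1) from the negative control (y axis) in each microRNA library (x axis) for the 8 genes (symbols), with the median (line), the middle 50% (dark grey) and the middle 90% (light grey) of all 14180 tested genes and the 1.5-fold size (dashed). All symbols lie above the dashed line, between 0.64 for HMGN1 with let-7a 19A and 1.38 for CACUL1 with native miR-17.

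No spread between replicates is known, and the range of the 4 differently treated microRNA libraries is the only spread the table offers beside the gap to the control. For all 8 genes the gap between the control and the nearest microRNA library was wider than that range, as for 4.72% of tested genes. The genes were picked for low values in the control against all 4 others, so nothing is read from that count. Relative to the range, the gap was widest for TPD52L2, with a gap of 0.90 and a range of 0.08, and narrowest for POP5, with a gap of 0.66 and a range of 0.53. Among 10757 genes that averaged 5 TPM or more and had no library at 0, ordered by their smallest difference from the control, CACUL1 was at rank 3, MNAT1 at 4, TPD52L2 at 12, YWHAB at 31, ABHD14B at 33, HIPK1 at 34, POP5 at 41 and HMGN1 at 45. The group is therefore not the whole upper end of that order. The rule has no cutoff. HMGN1 was at 0.636, between YTHDF2, an m6A reader, at 0.637 and IGFBP6, a secreted binder of insulin-like growth factors, at 0.635, neither of them in the group.

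The 10 genes outside the group with the largest smallest-of-4 difference in that order held 4 clone-named noncoding genes and 1 pseudogene. The other five were SNHG6, a noncoding host of a small nucleolar RNA, CANX, the endoplasmic reticulum chaperone calnexin, C19orf81, IFITM1, an interferon-induced membrane protein, and NARS2, the mitochondrial asparaginyl-tRNA synthetase. CANX had 666.2 TPM with let-7a 19A, 631.3 with native let-7a, 602.4 with miR-17 13A and 698.1 with native miR-17, against 287.2 TPM in the control. SNHG6 had 354.4 TPM with let-7a 19A, 367.1 with native let-7a, 385.0 with miR-17 13A and 388.0 with native miR-17, against 161.7 TPM in the control. CANX and NARS2 carried GGTTGTG in the 3′ UTR, C19orf81 and IFITM1 did not, and SNHG6 was not among the searched genes.

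Likeness of pattern was measured over the 5 libraries as the Euclidean distance between a gene's log2(TPM + 1) values, centred on their own mean, and the mean centred profile of the 8 genes, which was 0.11 for let-7a 19A, 0.14 for native let-7a, 0.22 for miR-17 13A, 0.30 for native miR-17 and -0.78 for the control. The nearest gene outside the group was SERP1, a protein that stabilises the endoplasmic reticulum translocon, at a distance of 0.11, with 96.2 TPM with let-7a 19A, 102.3 with native let-7a, 104.5 with miR-17 13A and 109.2 with native miR-17, against 56.3 TPM in the control. A pseudogene, the sulfotransferase CHST14 (0.14), NARS2 (0.14), the calcineurin regulator RCAN1 (0.15), the respiratory complex I subunit NDUFB5 (0.16), the mitochondrial ribosomal protein MRPS35 (0.17), MFSD3 (0.19), PABPC1L (0.20) and GLYR1 (0.21) made up the 10 nearest. Within the group, YWHAB (0.14), TPD52L2 (0.14) and HMGN1 (0.19) lay closest to the mean profile and CACUL1 (0.40) and POP5 (0.37) furthest. Of the 8 near genes with a searched 3′ UTR, SERP1, CHST14, NARS2, RCAN1, MRPS35 and GLYR1 carried GGTTGTG and NDUFB5 and PABPC1L did not, against 10.5% of all searched genes. Both the genes and the heptamer were picked for low control values, so this count supports nothing.

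Comparisons among the 4 microRNA libraries do not use the control. The genes were, however, picked for a low control against each of these 4 libraries, so the spread among them is not free of that choice. The 8 genes also averaged 21.06 to 242.06 TPM, whereas the tested genes reach down to a mean of 1 TPM. Nothing is therefore read from the counts at 1.5-fold in this and the following comparisons. Differences between methylated and native let-7a were the smallest for most of the 8 genes. The differences, let-7a 19A minus native let-7a, ran from -0.13 in YWHAB and HMGN1 to 0.05 in HIPK1, with a median of -0.02 against -0.03 over all genes. TPD52L2, HIPK1 and ABHD14B were above 0, or 3 of the 8, against 39.8% of tested genes. With median-of-ratios size factors CACUL1, MNAT1 and POP5 were above 0 as well. None of the 8 was 1.5-fold apart in either direction, a size that 2.18% of tested genes reached upward and 2.3% downward.

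Methylated against native miR-17 gave wider differences. HIPK1 was lower with miR-17 13A by the most of the group, at a difference of -0.29 (22.9 against 28.3 TPM), followed by CACUL1 at -0.20 (66.0 against 76.1 TPM). POP5 was the only one of the 8 genes above native miR-17, at 0.27 (29.1 against 23.9 TPM), but with median-of-ratios size factors TPD52L2 and HMGN1 were above 0 too. It also lay just above the middle 90% of all genes, which ran from -0.44 to 0.25. The median of the 8 was -0.10, against -0.09 over all genes, and 28.4% of tested genes were above 0. None of the 8 was 1.5-fold apart, as 1.54% of tested genes were upward and 2.62% downward.

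The mean of the miR-17 libraries lay above the mean of the let-7a libraries in 5 of the 8 genes, against 48.5% of tested genes. The difference was 0.38 in POP5, 0.33 in ABHD14B and 0.23 in HMGN1, 0.14 in YWHAB and MNAT1, -0.003 in TPD52L2, -0.08 in HIPK1 and -0.10 in CACUL1. ABHD14B carries the full let-7a match shown above, and CACUL1, the lowest of the 8 in this comparison, carries matches to both microRNAs. POP5, HMGN1, YWHAB and MNAT1 carry none of the seed matches searched and also had higher miR-17 means. TPD52L2 and HIPK1, likewise without a seed match, did not. The part of the seed matches in these differences was not tested. None of the 8 genes reached 1.5-fold, as 3.24% of tested genes did upward and 4.71% downward. The difference between the microRNAs was not tested.

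**Figure D3:**
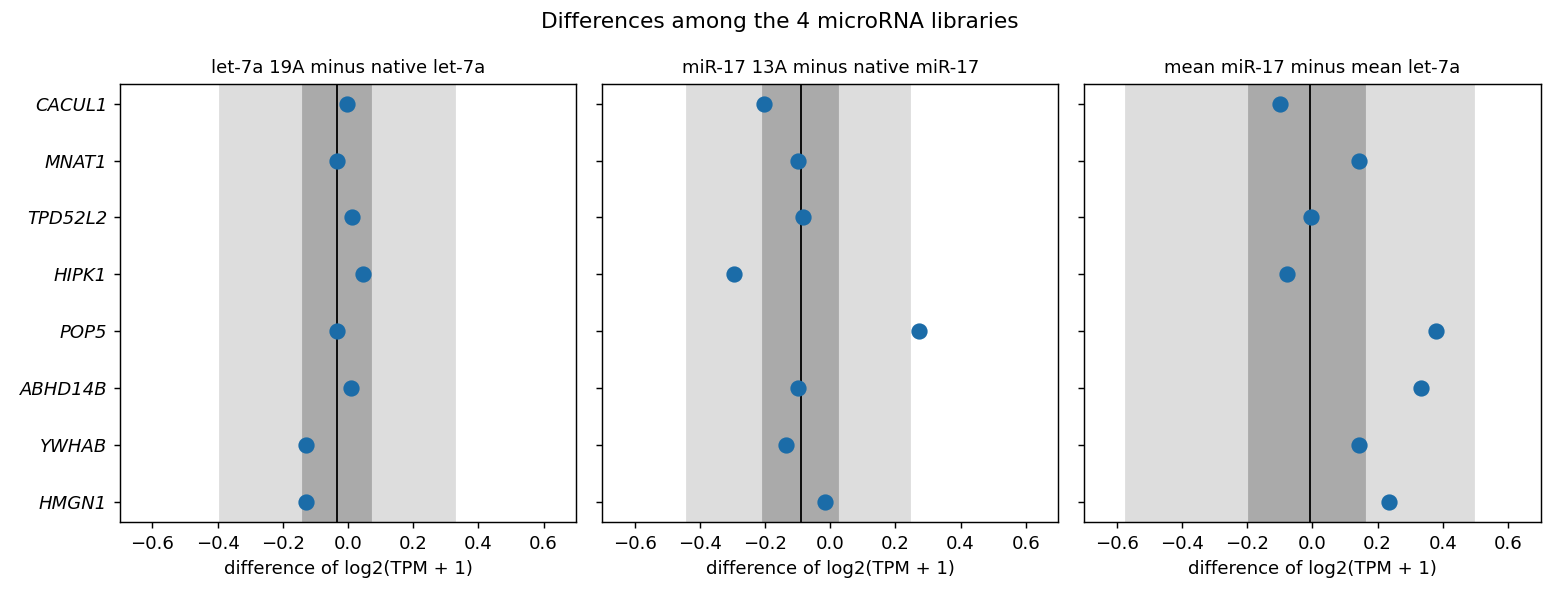
Differences of log2(TPM + 1) (x axis) in the 8 genes (rows) for let-7a 19A minus native let-7a, miR-17 13A minus native miR-17, and the mean of the miR-17 libraries minus the mean of the let-7a libraries, with the median (line), middle 50% (dark grey) and middle 90% (light grey) of all tested genes. Points lie within the light band except POP5 in the middle panel, at 0.27.

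The partners and relatives of the 8 genes were followed to see whether whole complexes or families shared the pattern. Of 51 listed genes, 48 rows passed the filter. Their median difference from the control was -0.07 with let-7a 19A, 0.06 with native let-7a, -0.03 with miR-17 13A and 0.05 with native miR-17, close to the medians of all genes. At 1.5-fold, 0 of the 48 were higher with let-7a 19A, native let-7a or native miR-17 and 1 was higher with miR-17 13A, where the shares of all tested genes were the 3.34% to 6.5% given above. One listed gene was lower in each comparison, against 2.98% of tested genes with let-7a 19A, 3.86% with native let-7a, 10.1% with miR-17 13A and 5.93% with native miR-17. At such shares few of 48 genes would be past the size in any case. The control was the lowest library for 8 of the 48 and the highest for 10, against 21.1% and 26.5% of all tested genes.

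Beside MNAT1, the other two subunits of the CDK-activating kinase did not lie to one side of the control. CDK7, its catalytic subunit, had 75.2 TPM with let-7a 19A, 87.2 with native let-7a, 76.4 with miR-17 13A and 74.0 with native miR-17, against 80.1 TPM in the control. CCNH, its cyclin, had 12.9 TPM with let-7a 19A, 15.6 with native let-7a, 18.7 with miR-17 13A and 20.4 with native miR-17, against 15.8 TPM in the control. For both genes the control lay inside the range of the microRNA libraries, and 0 of the 9 listed TFIIH and kinase genes were 1.5-fold apart from it. Beside CACUL1, CDK2 lay between 46.4 and 50.8 TPM with the microRNAs and at 48.2 TPM in the control. CCNE2, a cyclin partner of CDK2, was lower than the control, with 2.1 TPM with let-7a 19A, 2.3 with native let-7a, 2.9 with miR-17 13A and 2.5 with native miR-17, against 4.7 TPM in the control, and was 1.5-fold lower in all but miR-17 13A.

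Among the families of the remaining genes, only HMGN2 was 1.5-fold above the control in TPM + 1 in any library. TPD52, the founding member of the TPD52L2 family, lay between 32.5 and 37.5 TPM with the microRNAs and at 35.1 TPM in the control. Of the 6 other 14-3-3 genes, the control was the lowest library for 0 and the highest for 3, against 21.1% and 26.5% of all tested genes. SFN lay above the control with both let-7a forms and below it with both miR-17 forms, and YWHAE the reverse. YWHAZ had 503.9 to 550.1 TPM with the microRNAs against 542.1 TPM in the control. HIPK3, a kinase of the HIPK1 family, was lower than the control in all 4, with 45.3 TPM with let-7a 19A, 40.7 with native let-7a, 29.5 with miR-17 13A and 34.2 with native miR-17, against 50 TPM, and was 1.5-fold lower in miR-17 13A. Of the 10 RNase P and MRP rows tested beside POP5, 0 were 1.5-fold apart in TPM + 1. RPP40 lay just under that size with native let-7a, at 0.579 (21.4 against 14 TPM), but at -0.04 with let-7a 19A. The control was the lowest library for 3 of the 10 rows and the highest for 1. The RNA components RPPH1 and RMRP were listed at 0 in every library. HMGN2, another nucleosome binder, was above the control in all 4, with 391.1 TPM with let-7a 19A, 461.0 with native let-7a, 494.8 with miR-17 13A and 466.1 with native miR-17, against 321.2 TPM in the control. Its differences from the control ran from 0.28 to 0.62, the last in miR-17 13A, where it passed 1.5-fold. Next to ABHD14B, its relative ABHD14A had 11.6 to 14.4 TPM with the microRNAs against 12.4 TPM in the control, and the neighbouring aminoacylase gene ACY1 had 27.5 to 33.8 TPM against 24.3 TPM.

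**Figure D4:**
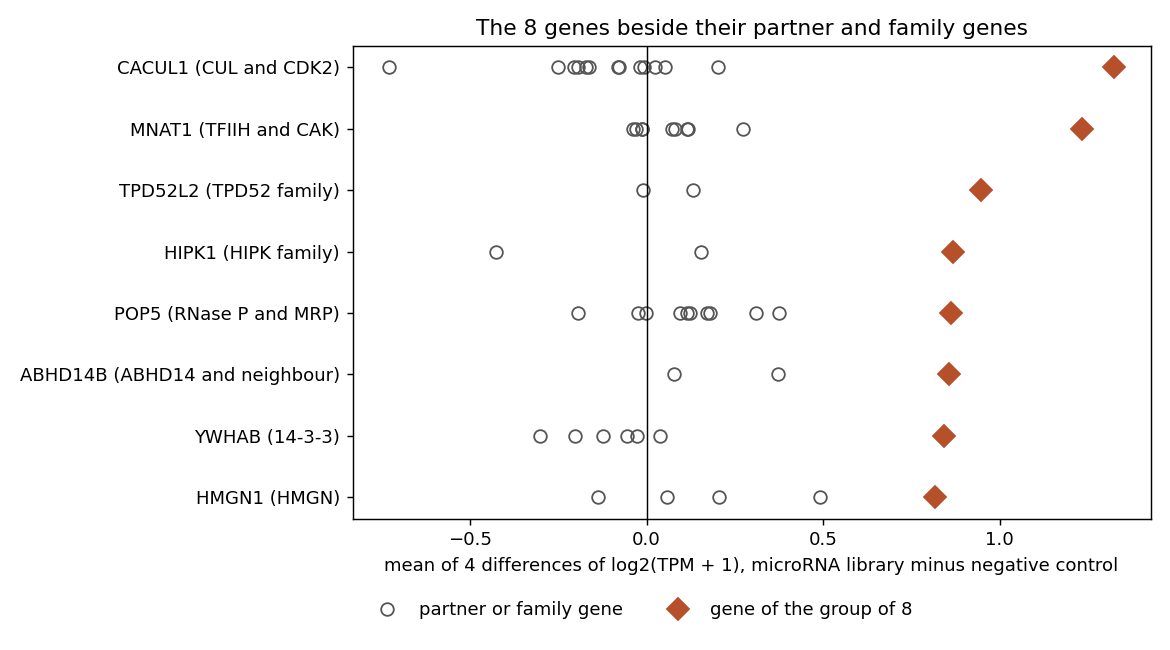
Mean of the 4 differences of log2(TPM + 1) from the negative control (x axis) for each of the 8 genes (filled diamonds) and for the tested genes of its partner or family list (open circles), 1 row per list. Each diamond lies to the right of its row's circles, and the narrowest gap is that between HMGN1 and HMGN2. The 8 genes were picked for low control values and the listed genes were not, so nothing is read from these positions.

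Reads of overlapping or near-identical genes can be split differently by different counting tools, and the tool used is not given in the sources used here. ABHD14B shares 392 exonic bases with ABHD14A and 132 with ACY1 on the opposite strand, and 52 with PCBP4 on its own strand, by GENCODE 29. It also shares 306 with the noncoding AC115284.1, at 3.0 TPM with let-7a 19A and 0 in the other libraries. PCBP4, an RNA-binding protein, had 53.7 TPM with let-7a 19A, 49.4 with native let-7a, 72.7 with miR-17 13A and 75.7 with native miR-17, against 57.3 TPM in the control. It thus shared the higher miR-17 values of ABHD14B but not the low control value, and its part in the ABHD14B values was not tested. HIPK1 shares 301 exonic bases with an antisense gene, HIPK1-AS1, of 0.1 to 0.2 TPM. The table also lists 30 pseudogenes of HMGN1, all at 0 in every library.

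Beyond the 8 genes, those with GGTTGTG in the longest 3′ UTR were compared with those without it, leaving the 8 out. Of 60 other searched genes at least 1.5-fold above the control in all 4 microRNA libraries, 23 carried the heptamer, or 38.3%, which is 1.83% of the 1258 genes that carry it. Of the 10757 genes without the heptamer, 0.344% reached that size in all 4. Most genes with the heptamer thus did not show the pattern of the 8. Searched genes with it, the 8 included, also have longer 3′ UTRs, with a median of 3058.5 bases against 1221. Within 3′ UTRs under 2000 bases, 4.37% of 366 genes with it and 0.477% of 7334 genes without it reached the size. The heptamer was chosen for low values in the same control library that sets the size. None of these shares is therefore independent support for it, and the part of 3′ UTR length was not tested.

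By the longest 3′ UTR, the median difference from the control was higher in genes with 1 heptamer than in those with none. It was higher again with 2 or more, though in miR-17 13A genes with 1 and with none lay close together. The heptamer was chosen on differences from this same control library, so that order is no independent support. These medians are also not adjusted for the longer 3′ UTRs of genes with the heptamer. In let-7a 19A the median was 0.11 for the 142 genes with 2 or more, 0.01 for the 1116 with 1 and -0.05 for those with none. In native let-7a it was 0.11, 0.04 and 0.00, and in native miR-17 it was 0.16, 0.05 and 0.004. In miR-17 13A it was -0.040, -0.072 and -0.073. With a search of any annotated 3′ UTR it was -0.050, -0.077 and -0.073 there, so that genes with 1 heptamer no longer lay above those with none. Between methylated and native miR-17, where the control does not enter, the medians were -0.18, -0.13 and -0.08, and between methylated and native let-7a they were 0.02, -0.02 and -0.04.

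A linear model across the 12015 searched genes outside the group set each of 16230 heptamers, those found in at least 50 genes, against the difference from the control, with terms for 3′ UTR length, GC content and mean level. Ordered by coefficient over standard error, GGTTGTG was first in all 4 comparisons. Its coefficient was 0.117 with let-7a 19A, 0.123 with native let-7a, 0.115 with miR-17 13A and 0.112 with native miR-17. The next were TGGTTGT and GTTGTGA, each sharing 6 bases with it, in all comparisons but miR-17 13A, where they were ATCCCAG and GGATTAC. The heptamer was chosen on differences from this same control library, so its first place restates that choice and is no independent support. The 4 comparisons also share the control, and the standard errors treat genes as replicates, which they are not. The negative-control RNA itself could not be set against the heptamer, because its sequence is not given in the sources used here.

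**Figure D5:**
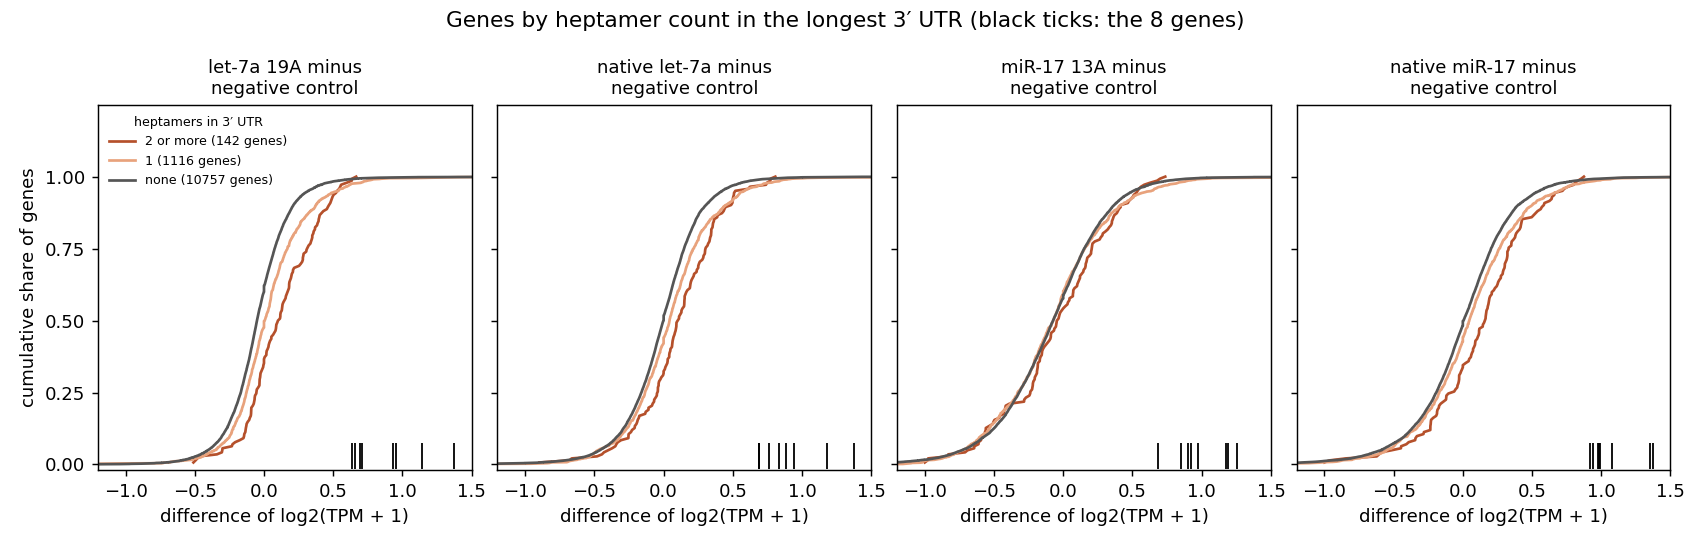
Cumulative share of searched genes outside the group (y axis) by difference of log2(TPM + 1) from the negative control (x axis), for genes with 2 or more (142), 1 (1116) or no (10757) GGTTGTG in the longest 3′ UTR, 1 panel per microRNA library. Black ticks mark the 8 genes; the curve for 2 or more heptamers lies furthest to the right at the median in each panel, at -0.04 in miR-17 13A, where the other two medians are both -0.07.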

How the data were processed

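The deposited table gives TPM per gene for 5 libraries, rounded by the authors to 1 decimal. Per the labels, Isogen was used for RNA extraction and the TruSeq Stranded Total RNA kit, with Ribo-Zero, for the libraries. The submitters' processing notes name the genome build hg19; aligner, counting tool and annotation: not given in the sources used here. Every column sums to about the same total, so depth and counting error are unknown. From these values, differences of log2(TPM + 1) were computed over 14180 genes averaging 1 TPM or more (Python 3.11.15, pandas 2.3.3, numpy 2.4.6), and 1.5-fold served as a mark of size without any test. GENCODE 29 (GRCh38, another build) supplied 3′ UTR sequences of at least 50 bases and gene types but no coordinates, and 90.6% of the table's gene identifiers were found in it. The genes, partner lists and heptamer were chosen with earlier results of these data known. Named genes were the 8, their partner lists, and the 10 nearest in pattern and 10 highest in order, without pseudogenes and clone names. Other pseudocounts, filters, scalings and fold sizes were tried.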

Additional observations from a re-analysis of the deposited data

Results flagged for a closer look

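In 4 of the 8 genes the methylated form lay on opposite sides of its native form in the 2 microRNAs, with TPM differences above the rounding of the table. The same was so for 46.1% of the 14180 tested genes, so the count of 4 is close to that background. Each is a comparison of single libraries, and the difference between the microRNAs was not tested. HIPK1 differed by 0.046 for let-7a 19A minus native let-7a and by -0.29 for miR-17 13A minus native miR-17. POP5 differed by -0.034 in let-7a and by 0.27 in miR-17. ABHD14B differed by 0.010 in let-7a and by -0.10 in miR-17. TPD52L2 differed by 0.014 in let-7a and by -0.085 in miR-17. With median-of-ratios size factors POP5 was at 0.005 in let-7a and TPD52L2 at 0.005 in miR-17, so that neither was on opposite sides, whereas HIPK1 was at 0.087 and -0.21. CACUL1 (0.039 and -0.11), MNAT1 (0.006 and -0.010) and HMGN1 (-0.086 and 0.073) came to lie on opposite sides. The count by sign alone was then 5 of the 8, so which genes are flagged depends on the scaling.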

How the results depend on the processing

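Over the alternatives run, the smallest difference from the control stayed above 0 for all 8 genes, the lowest value being 0.53 for POP5 with a pseudocount of 5. The genes were picked for low control values, a pseudocount cannot change the sign of a difference, and the filters leave the genes' own values unchanged. Only the rescalings could therefore have moved a difference below 0. The 8 genes' medians stayed within 0.1 of the values given. With size factors from medians of ratios the let-7a 19A minus native let-7a median was 0.02, and without mitochondrial and ribosomal protein genes 0.02, on the other side of 0 from the -0.02 given, and the miR-17 13A minus native miR-17 median was -0.01 with those size factors, against -0.10. The cause was not tested. A pseudocount of 5 left 6 of the 8 genes past 1.5-fold in all 4 libraries, without HIPK1 and POP5, and a 2-fold size left 2. Counts over all genes depended on the settings. Genes past the size in all 4 libraries numbered 239 with a pseudocount of 0.1, 33 with 5, 66 with a mean of at least 5 TPM and 36 at 2-fold. For let-7a 19A, native let-7a, miR-17 13A and native miR-17 the counts were 149, 209, 290 and 330 with a pseudocount of 5, then 184, 286, 422 and 496 with a mean of at least 5 TPM, 1019, 1123, 1267 and 1547 with no filter, and 166, 172, 184 and 238 at 2-fold. The lower counts with a higher pseudocount, filter or size follow from how these settings are built. Searching any annotated 3′ UTR, which includes the longest, could not find the heptamer in fewer than 6 of the 8 genes, and it added none. HIPK1 held the heptamer in 4 of its 9 annotated 3′ UTRs and TPD52L2 in 8 of 9. The other genes with a match held it in all of theirs. The labels give no replicate numbers to pair libraries by; methylated and native forms of the same microRNA were compared directly, with no fit over both pairs. Depth is unknown and limits every value of low genes.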
